A study of Mus musculus with 18 samples.

Results

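Keratin 8, keratin 18, keratin 7, keratin 19, osteopontin and clusterin were followed as 6 of the 10509 genes listed in a table of mouse pancreatic islet expression, and were taken by their symbols (Krt8, Krt18, Krt7, Krt19, Spp1 and Clu). All 6 were listed in every library. The table came from islets of 10 knockout mice lacking nicotinamide riboside kinase 1 (NRK1, gene Nmrk1) in beta cells, labelled NRK1_BKO and called KO 1 to KO 10, and of 8 mice labelled NRK1_WT, called WT 1 to WT 8. Every mouse in both groups had eaten a high-fat diet (HFD) for 12 weeks, and the titles carry 1 animal number per library. Ins1Cre, a Cre recombinase under the insulin 1 promoter, drove the deletion. Titles of the WT samples also carry the name Ins1Cre, and whether those mice had the Cre allele, the sex and the age of the mice are not given in the labels. The islets are a mixture of cell types, so in these bulk libraries fewer cells of a type and less RNA per cell cannot be told apart.

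Keratins build intermediate filaments from pairs of a type II chain (Krt8, Krt7) and a type I chain (Krt18, Krt19). Krt8 with Krt18 is the basic pair of simple epithelia and is known from acinar, duct and islet cells of the pancreas, whereas Krt19 and Krt7 are used as duct markers. Spp1 encodes osteopontin, a secreted matrix phosphoprotein made by duct cells and macrophages, and Clu encodes clusterin, a secreted chaperone.

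The libraries were made with a 3' end kit and held 2831137 to 4303680 reads over the listed genes. Levels are the deposited log2 values, which are log2 of CPM (read counts scaled per library) plus a floor of 0.562 CPM. The scaling was not by library size alone. In KO 3, 1 read stood for 0.390 CPM, more than scaling to its 3292303 listed reads would give. KO 2, KO 3 and WT 7 had the highest CPM per read, at 0.377, 0.390 and 0.411. A gene gives reads from its 3' end whatever its length, so levels of different genes are compared as 3' reads. KO 2, KO 3 and WT 7 had the most genes without a read (320, 227 and 346 of the listed genes), and the values of the 6 genes without them are given beside the genotype and Krt8 results. Nmrk1 itself was listed at 1.05 to 2.61 log2 CPM in KO islets (4 to 21 reads) and at 0.53 to 3.32 log2 CPM in WT islets (3 to 36 reads). Its KO minus WT difference was -0.03 (SE 0.35, limma adjusted p = 0.997). The deleted stretch of Nmrk1 is not given in the labels, and 3' reads outside it do not check the genotype. The insulin gene Ins2, the main islet marker, was at 18.33 to 19.46 log2 CPM in KO islets and 18.16 to 19.03 log2 CPM in WT islets. Ins1, whose promoter drives the Cre, was at 14.35 to 15.96 log2 CPM in KO islets and 15.71 to 16.71 log2 CPM in WT islets, a KO minus WT difference of -0.68 with overlapping groups (limma adjusted p = 0.926).

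Krt8, Krt18 and Krt7 lie in 1 stretch of chromosome 15 in the GRCm38 build. Krt8 (15:101996711-102004342, minus strand) and Krt18 (15:102028216-102032026, plus strand) are separated by 23873 bases, and Krt7 (15:101412403-101427806, plus strand) is 568904 bases before Krt8. Krt19 is at 11:100140810-100145926, Spp1 at 5:104435111-104441053 and Clu at 14:65968483-65981548. The start regions of Krt8, Krt18, Krt7 and Spp1 are printed to set the neighbours and the more variable Spp1 side by side. They are RefSeq sequences of GRCm38.p6, each running from 100 bases before to 20 bases after the start, read along the strand of the gene. Capitals mark a TATA box (TATAAA), a GC box (GGGCGG) or a CCAAT box, searched on both strands. They are Krt8 at chr15:102004323-102004442, Krt18 at chr15:102028116-102028235, Krt7 at chr15:101412303-101412422 and Spp1 at chr5:104435011-104435130.
Krt8: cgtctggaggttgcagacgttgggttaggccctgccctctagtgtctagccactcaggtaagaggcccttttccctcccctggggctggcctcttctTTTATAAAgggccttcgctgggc
Krt18: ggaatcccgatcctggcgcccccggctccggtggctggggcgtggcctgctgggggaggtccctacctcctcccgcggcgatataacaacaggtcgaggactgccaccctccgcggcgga
Krt7: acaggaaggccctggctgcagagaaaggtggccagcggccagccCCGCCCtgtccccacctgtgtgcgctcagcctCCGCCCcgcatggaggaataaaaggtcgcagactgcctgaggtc
Spp1: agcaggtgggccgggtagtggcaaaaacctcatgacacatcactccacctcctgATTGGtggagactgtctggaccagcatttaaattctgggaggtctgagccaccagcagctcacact
In Krt8 the letters TATAAA overlap TTTATA, its opposite-strand form, and lie across the annotated start. Krt18 held none of the motifs in this window. Krt7 held the opposite-strand form CCGCCC at 2 places, and Spp1 held ATTGG, the opposite-strand form of CCAAT. Over the 32851 promoters of the same length, TATAAA was found in 6.10%, GGGCGG in 26.7% and CCAAT in 20.8%.

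Krt7, a type II keratin, had the highest level of the 6 genes. It was at 8.40, 8.83 and 9.64 log2 CPM (lowest, median and highest) in KO islets and at 8.59, 8.86 and 8.99 log2 CPM in WT islets. These values rest on 993 to 3120 reads in KO libraries and 1212 to 2010 reads in WT libraries, and the mean placed Krt7 at rank 85 of the 10509 genes. KO 10 was highest and KO 8 lowest, so the WT range lay inside the KO range. In the GENCODE annotation an antisense gene, Gm671, overlaps Krt7, and the sources used here do not say whether counting used strand.

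Krt8, the other type II keratin, was far lower. It was at 3.90, 4.69 and 5.22 log2 CPM in KO islets (38 to 134 reads) and at 4.41, 4.80 and 4.94 log2 CPM in WT islets (58 to 116 reads). KO 1 was highest, KO 2 and KO 4 were lowest, and again the WT values lay inside the KO range. A pseudogene named Krt8-ps and an overlapping opposite-strand gene, Gm36026, are annotated. The sources used here do not give how reads that map to more than 1 place were counted, so the Krt8 level carries that uncertainty.

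Krt18, the type I partner of Krt8, was at 7.35, 7.85 and 8.21 log2 CPM in KO islets (432 to 1157 reads) and at 7.40, 7.80 and 7.92 log2 CPM in WT islets (541 to 992 reads). KO 10 was highest and KO 2 lowest, and the groups overlapped over nearly their whole range. Krt18 had the smallest spread of the 6 genes, an SD of 0.24 log2 within a genotype.

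Krt19, the type I keratin of ducts, was close to the floor. It was at -0.83, 1.76 and 3.90 log2 CPM in KO islets (0 to 59 reads) and at 0.35, 1.36 and 3.39 log2 CPM in WT islets (3 to 36 reads). KO 5, KO 6 and WT 4 stood highest, with 59, 36 and 36 reads. KO 8 had no read, which at its depth allows a level of up to 0.916 CPM (3 reads; counting error only). The mean of Krt19 ranked 9371 of the 10509 genes, and its SD within a genotype, 1.29 log2, was larger than that of 95% of the 500 genes nearest in mean.

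Spp1 was at 4.63, 6.22 and 7.15 log2 CPM in KO islets (64 to 556 reads) and at 4.46, 6.05 and 6.70 log2 CPM in WT islets (60 to 434 reads). The 4 lowest libraries were WT 8, KO 2, WT 7 and KO 3, at 4.46, 4.63, 4.66 and 5.01 log2 CPM, and KO 10 was highest. Of these 4, KO 2, KO 3 and WT 7 are the libraries with the most genes without a read, and the part of that in the Spp1 level was not tested. Its SD within a genotype, 0.87 log2, exceeded that of 99.4% of the 500 genes nearest in mean, while counting alone would give 1.56% of its variance. An annotated GENCODE gene, Gm42793, overlaps Spp1 on the same strand, so counting by strand would not separate their reads. In RefSeq no gene overlaps Spp1 or any other of the 6 genes. Which annotation was used for counting is not given.

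Clu was at 7.40, 7.80 and 8.48 log2 CPM in KO islets (483 to 1465 reads) and at 7.03, 7.64 and 8.36 log2 CPM in WT islets (442 to 1189 reads). KO 5 and WT 4 were highest in their groups, the same libraries that were highest for Krt19. Krt7, Krt18, Krt8 and Clu had SDs larger than 41.6%, 23.2%, 24.2% and 63.2% of the genes nearest in mean.

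In order of mean level the genes ran Krt7, Krt18, Clu, Spp1, Krt8 and Krt19. Krt7 lay above Krt18 in 18 of 18 libraries, by 1.09 ± 0.33 log2 (SD, n = 18). Krt18 and Clu did not differ beyond their spread, with Krt18 higher in 9 of 18 libraries and a mean difference of 0.01 ± 0.40 log2. Clu lay above Spp1, Spp1 above Krt8 and Krt8 above Krt19 in 18 of 18 libraries each.

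**Figure D1:**
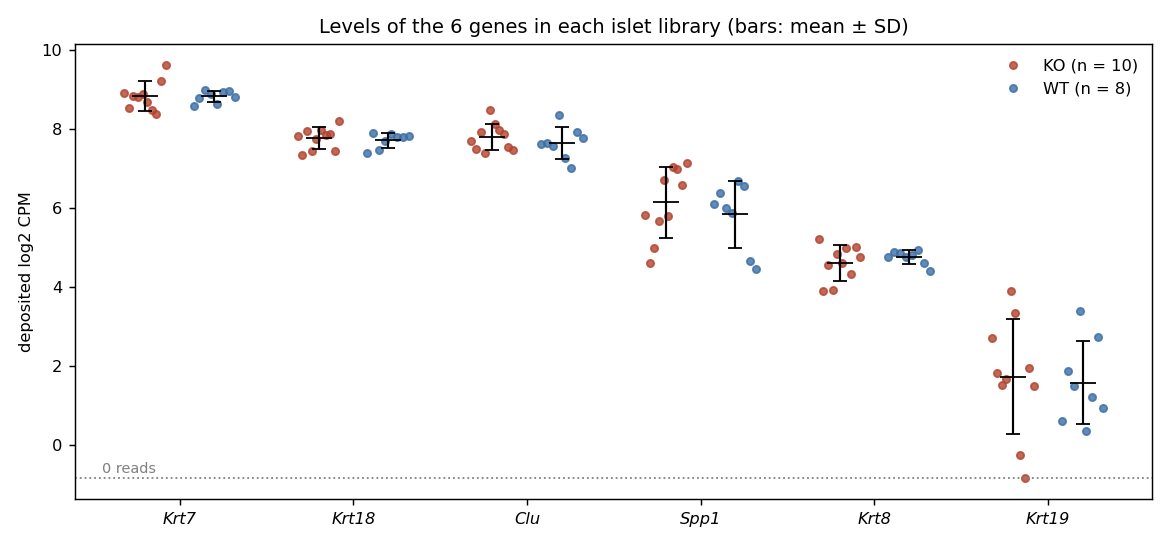
Deposited log2 CPM of each of the 6 genes (vertical axis) in 10 KO and 8 WT islet libraries, 1 point per library, with bars for the mean and SD; the dotted line is the value of 0 reads. Krt7, Krt18, Clu and Krt8 sit in narrow bands, whereas Spp1 spreads from 4.46 to 7.15 and Krt19 from -0.83 to 3.90.

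Within the reads of the 4 keratin genes, Krt7 made up 64.7% ± 5.96 in KO islets (SD, n = 10) and 65.3% ± 3.23 in WT islets (SD, n = 8). The exact permutation test, two-sided, gave p = 0.817 for this difference. Krt18 made up 31.2% ± 5.67 in KO islets and 30.4% ± 3.32 in WT islets. Krt8 made up 3.49% ± 0.958 in KO islets and 3.83% ± 0.542 in WT islets, and Krt19 made up 0.607% ± 0.619 in KO islets and 0.458% ± 0.435 in WT islets. Krt7 and Krt18 thus supplied nearly all keratin reads in every library.

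Krt8 and Krt18 pair in filaments, but their reads were not equal. The Krt8 to Krt18 read ratio was 0.114 ± 0.0362 in KO islets (0.0840 to 0.184) and 0.127 ± 0.0241 in WT islets (0.0913 to 0.161). The groups overlapped, and the exact permutation test gave p = 0.386. Over the 12 libraries whose animal numbers follow one another in runs of both genotypes (7 KO and 5 WT), an alternative added after seeing the data, the KO minus WT difference of the ratio was -0.0362, with an unadjusted exact p of 0.0253. The animal numbers are not stated to be a batch.

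**Figure D2:**
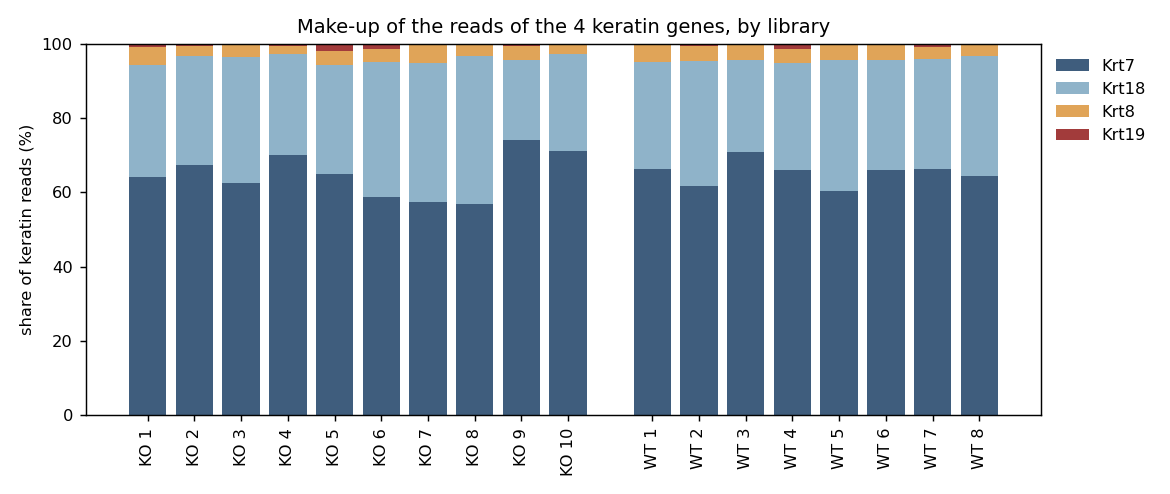
Share of the reads of the 4 keratin genes (vertical axis, percent) in each KO library, left, and WT library, right. Krt7 takes 56.8% to 74.1% and Krt18 21.5% to 39.9% of each bar, with Krt8 and Krt19 as thin bands at the top.

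Whether Krt8 and Krt18 followed duct genes or endocrine genes was read from correlations over the 18 libraries. The partners were Krt19, Spp1 and marker scores, each the mean log2 CPM of a list that holds none of the 6 genes. The duct list had 20 of 27 genes in the table, among them Cldn4 and Cldn7 (tight junction claudins) and Sox9 (a duct transcription factor), with 0 to 33 reads of Sox9 in KO libraries (0 in 1 of them) and 5 to 13 in WT libraries. The duct score ran from 3.30 to 4.02 in KO islets and from 3.41 to 4.0 in WT islets. Its r was -0.20 with Krt19, -0.02 with Krt7 and 0.35 with Spp1 (permutation p = 0.431, 0.946 and 0.148, adjusted 0.778, 0.946 and 0.524). KO 7 had the highest duct score, 4.02, with 1 read of Krt19. How far the score follows duct content was not tested. The pan-endocrine score (secretory granule and islet transcription factor genes) ran from 7.87 to 8.22 in KO islets and from 7.79 to 8.15 in WT islets. A family of 40 relations was computed, with permutation p-values adjusted by Benjamini-Hochberg. None had an adjusted p under 0.05 by Pearson or Spearman, and 4 and 2 had an unadjusted p under 0.05.

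No relation of Krt8 with a duct or an endocrine partner passed the adjustment. With Spp1 its r was 0.51 (permutation p = 0.0293, adjusted 0.425) and rho 0.51 (permutation p = 0.0305, adjusted 0.602). Without KO 2 and WT 8, the libraries farthest from the median of Spp1, r was 0.28, and without KO 2, KO 3 and WT 7 it was 0.34. Within KO islets r of Krt8 with Spp1 was 0.52, within WT islets 0.91 (adjusted permutation p = 0.107), and it was 0.61 on residuals from run means in 14 libraries (adjusted permutation p = 0.168). WT 7 and WT 8 were the lowest WT libraries for Krt8 (4.61 and 4.41 log2 CPM) and for Spp1 (4.66 and 4.46 log2 CPM). The r within WT islets was not computed without them. With the duct score r was 0.48 (permutation p = 0.0452, adjusted 0.425) and rho 0.34 (permutation p = 0.173, adjusted 0.602). That r was 0.78 within KO islets, -0.48 within WT islets, 0.25 without KO 4 and KO 7 and 0.35 without KO 2, KO 3 and WT 7, and the difference between genotypes was not tested. With Krt19, r was 0.12 (permutation p = 0.649, adjusted 0.838), rho 0.06 (permutation p = 0.824, adjusted 0.891) and r without KO 5 and KO 8 was -0.05.

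For the endocrine scores, the r of Krt8 was 0.16 with the pan-endocrine score, -0.17 with the beta cell score and 0.19 with the alpha cell score (permutation p = 0.525, 0.476 and 0.448, adjusted 0.808, 0.781 and 0.778). The rho values were 0.32, -0.10 and 0.13 (permutation p = 0.194, 0.705 and 0.607, adjusted 0.602, 0.883 and 0.880), and r without the 2 farthest libraries was 0.15, -0.11 and 0.07. The r with the duct score exceeded these by 0.32, 0.65 and 0.29. Swapping the paired scores within libraries gave permutation p = 0.377, 0.172 and 0.352, all adjusted to 0.452 over 6 differences. On residuals from run means in 14 libraries, Krt8 had r = 0.77 with the alpha cell score and 0.65 with the duct score (adjusted permutation p = 0.168 and 0.188), and the duct less alpha cell difference was -0.12.

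Krt18 was nearer to 0 with most partners. Its r was 0.27 with Spp1, -0.03 with Krt19 and 0.28 with the duct score (permutation p = 0.267, 0.910 and 0.254, adjusted 0.628, 0.934 and 0.628). The rho values were 0.29, -0.14 and 0.13 (permutation p = 0.248, 0.574 and 0.606, adjusted 0.653, 0.880 and 0.880). Without the 2 farthest libraries r was 0.18, 0.05 and 0.13. With the pan-endocrine, beta cell and alpha cell scores its r was -0.13, -0.07 and 0.21 (permutation p = 0.603, 0.775 and 0.394, adjusted 0.838, 0.861 and 0.778). There rho was -0.01, 0.08 and 0.27 (permutation p = 0.967, 0.769 and 0.278, adjusted 0.987, 0.883 and 0.653), and r without the 2 farthest libraries was 0.02, 0.20 and -0.09. The duct r exceeded the endocrine ones by 0.42, 0.36 and 0.07, with permutation p = 0.142, 0.370 and 0.790, adjusted 0.452, 0.452 and 0.790.

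The filament partners themselves gave r = 0.29 (permutation p = 0.239, adjusted 0.628) and rho = 0.04 (permutation p = 0.861, adjusted 0.906). Without KO 2 and WT 1, r of Krt8 with Krt18 was 0.11, and without KO 2, KO 3 and WT 7 it was 0.12. It was 0.42 within KO islets and -0.11 within WT islets. The duct genes Krt19 and Spp1, which the pair was set against, gave r = -0.29 (permutation p = 0.249, adjusted 0.628), with rho = -0.32 (permutation p = 0.196, adjusted 0.602) and r = -0.44 without KO 2 and WT 8.

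Gene by gene, the r values with Krt8 over the 20 duct genes ran from -0.60 for Slc4a4 (a bicarbonate cotransporter) to 0.57 for Cldn4, with 13 above 0. Cldn7 reached 0.51 with Krt8, 0.57 with Krt18 and 0.63 with Spp1. For Krt19 only 8 of the 20 were above 0, with Ehf (an epithelial transcription factor) lowest at -0.58 and Tff2 (a trefoil factor) highest at 0.49. Of the 17 pan-endocrine genes, Vgf (a granule peptide precursor) was highest with Krt8 at 0.58 and Pax6 (an islet transcription factor) lowest at -0.49. Scg3 (a granule protein) was highest with Krt18 at 0.56. Macrophages also make osteopontin. Of the 12 measured myeloid genes, 8 had a mean of at least 3 log2 CPM. Over these 8 the r of Spp1 ran from -0.53 to 0.06, with a median of -0.31. The medians for Krt8, Krt18, Krt7, Krt19 and Clu were 0.20, -0.23, 0.43, 0.42 and -0.04. The part of macrophages in any of these levels was not tested. These are descriptions over the same 18 libraries and carry no test.

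**Figure D3:**
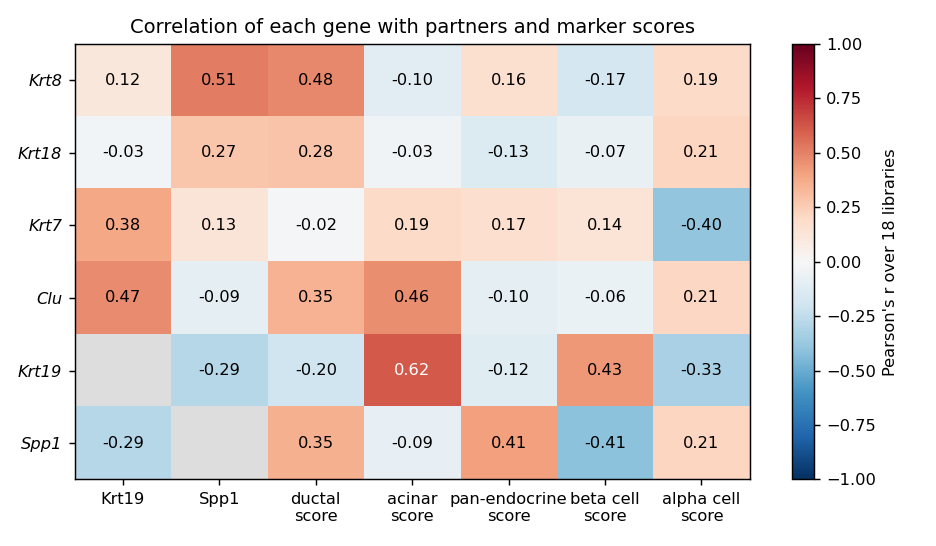
Pearson's r over the 18 libraries of each gene (rows) with Krt19, Spp1 and 5 marker scores (columns), coloured from -1 to 1; grey cells are a gene with itself. The Krt8 and Krt18 rows stay between -0.17 and 0.51, and the strongest cell is Krt19 with the acinar score, at 0.62.

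The largest r of the 40 relations was that of Krt19 with the acinar score, built from digestive enzyme genes. It was 0.62 (permutation p = 0.00590, adjusted 0.236) and rho 0.52 (permutation p = 0.0282, adjusted 0.602), which fails the adjustment over 40. Without KO 5 and WT 4 r was 0.40 (permutation p = 0.120), so much of it rests on them. Leaving out WT 7 gave r = 0.78 (adjusted 0.0116), and leaving out KO 2, KO 3 and WT 7 gave 0.79 (adjusted 0.0276), both past the threshold. The r was 0.85 within KO islets and 0.24 within WT islets. All 18 measured acinar genes had r above 0 with Krt19, with a median of 0.56. All 18 were also above 0 with Krt7 (median 0.16) and with Clu (median 0.43). With Krt8, Krt18 and Spp1, 2, 6 and 3 of them were above 0. The acinar genes were read in the same libraries, so these counts are not of separate observations. The acinar score ran from 1.17 to 6.42 in KO islets and from 1.38 to 6.29 in WT islets, and KO 5, KO 6 and WT 4 were the 3 highest for both Krt19 and the score. The part of acinar cells in the Krt19 level was not tested.

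Clu had r = 0.46 with the acinar score (permutation p = 0.0531, adjusted 0.425), rho = 0.28 (permutation p = 0.261, adjusted 0.653) and r = 0.07 without KO 5 and WT 4. With Krt19 it had r = 0.47 (permutation p = 0.0488, adjusted 0.425), rho = 0.41 (permutation p = 0.0937, adjusted 0.602) and r = 0.47 without KO 5 and KO 8. Krt8 and Krt18 had r = -0.10 and -0.03 with the acinar score (permutation p = 0.688 and 0.892, adjusted 0.838 and 0.934). Their rho was -0.25 and -0.08 (permutation p = 0.316 and 0.762, adjusted 0.653 and 0.883), and r was -0.23 and -0.02 without KO 5 and WT 4. Among the 40 relations, Krt7 reached its largest r in size, -0.40, with the alpha cell score (permutation p = 0.100, adjusted 0.445). There rho was -0.37 (permutation p = 0.129, adjusted 0.602) and r without KO 4 and KO 9 was -0.36.

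**Figure D4:**
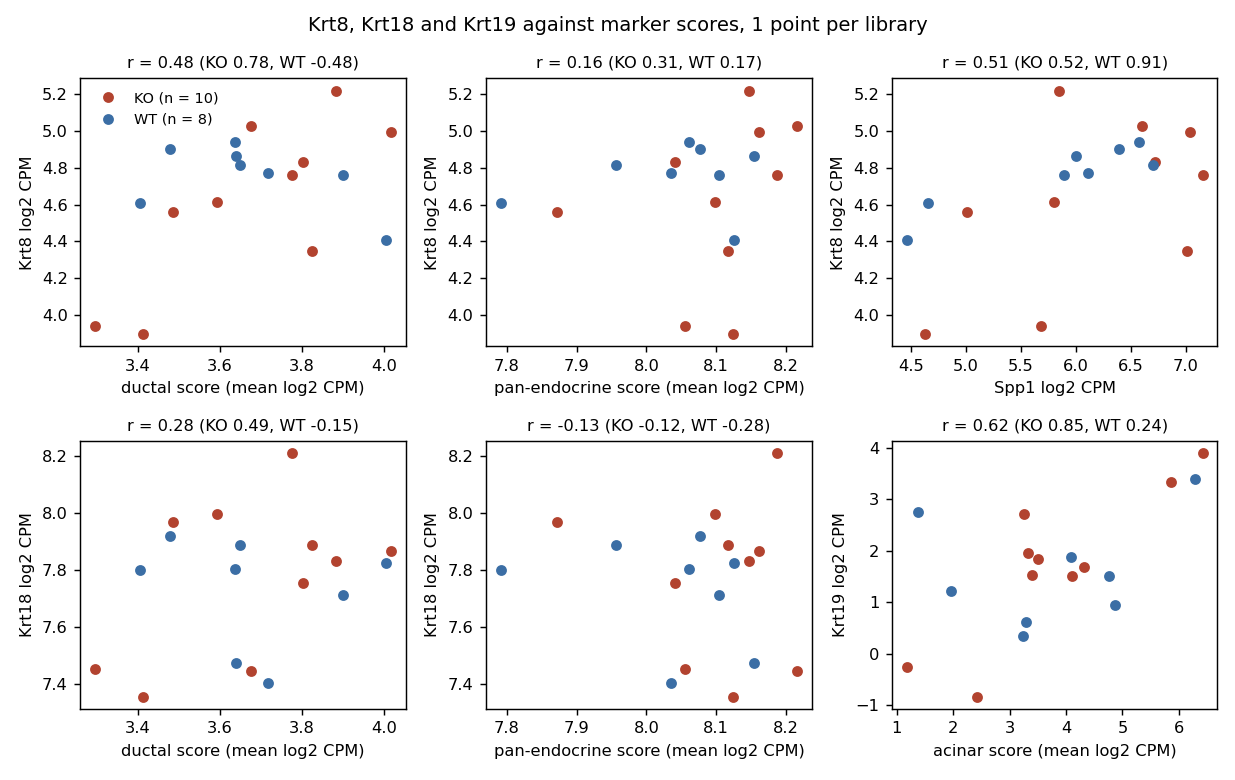
Each point is 1 library, red for KO and blue for WT; vertical axes are log2 CPM of Krt8, Krt18 or Krt19 and horizontal axes a marker score (mean log2 CPM) or Spp1. Krt8 and Krt18 form loose clouds, and Krt19 is highest in the 3 libraries of highest acinar score.

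The genes most like each member over the 18 libraries were sought among the 7418 genes with a mean of at least 3 log2 CPM, the member itself left out. For Krt8 they were Vps18 (r 0.83), Diras2 (0.78), Uhrf1bp1 (0.78), Tmed10 (0.77) and Ipo4 (0.73), with Eno3 and Mccc1 the most opposite (both -0.77). For Krt18 they were Exoc2 (0.79), Syt4 (0.77), Dnajc30 (0.77), Slc25a25 (0.74) and Atp6v0d1 (0.74), with Mpg (-0.81) and Pcmtd2 (-0.79) opposite. The 100 genes most like Krt8 and the 100 most like Krt18 held 0 of the 13 duct, 15 pan-endocrine, 14 beta cell, 6 alpha cell and 11 acinar genes compared. With 100 taken of 7417 genes, counts of 0 for lists this short are near what unrelated genes would give. They do not tell the cell types apart, and no count of this kind was tested.
For Krt7 the most like were Calm3 (0.87), Ephx1 (0.84), Clybl (0.82), Tenm4 (0.81) and Rabac1 (0.80), with Snrnp70 (-0.88) and Wasl (-0.82) opposite. For Krt19 they were Calcoco1 (0.81), Spsb1 (0.79), Sec14l1 (0.76), Ctrl (0.76) and Prss2 (0.75), the last 2 being acinar proteases, with Nab1 (-0.76) and Pard3b (-0.75) opposite. Among the 100 most like Krt19, taken of 7418 genes, were 7 of the 11 acinar genes (Prss2, Try5, Ctrb1, Ctrl, Cela2a, Cela3b and Pnlip). They also held the pan-endocrine gene Pcsk2, the beta cell gene Ins1 and 0 of the 13 duct genes. The 100 most like Krt7 held the beta cell gene Iapp.
For Spp1 they were Ttyh1 (0.85), Selenof (0.79), Imp4 (0.78), Uqcrq (0.78) and Rps9 (0.78), with Dcaf6 (-0.79) and Ppfia1 (-0.77) opposite, and its 100 held the duct gene Cldn7 (0.63) and the pan-endocrine gene Vgf (0.73). For Clu they were Zfp511 (0.67), Scaf8 (0.65), Lztfl1 (0.65), Cog7 (0.64) and Tab1 (0.64), with Lgi4 (-0.71) and Gclc (-0.69) opposite. The 100 most like Clu, taken of 7417 genes, held 4 of the 11 acinar genes. Without KO 5 and WT 4, r with the acinar score was 0.40 for Krt19 and 0.07 for Clu. The counts of acinar genes were not made without those libraries and were not tested.

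No difference between NRK1 knockout and WT islets was detected for any of the 6 genes. Limma, fitted over all 10509 genes, called 0 of the 6 at an adjusted p under 0.05, and 0.00% of all genes. At an unadjusted p under 0.05 it found 567 genes, 5.40% of all, of which 0 were among the 6. Limma voom on the recovered reads also called 0 genes, with 546 at an unadjusted p under 0.05. KO and WT libraries overlapped for each of the 6, as for nearly all genes, since only 0.00952% of genes did not overlap.

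Among the type II keratins, Krt7 averaged 8.84 ± 0.37 log2 CPM in KO islets and 8.83 ± 0.15 in WT islets (SD, n = 10 and 8), a difference of 0.01 (SE 0.14, interval -0.28 to 0.30, limma adjusted p = 0.994). It was -0.12 over the 12 run libraries, -0.07 with run as a term, and -0.08 without KO 10. Krt8 averaged 4.62 ± 0.45 in KO islets and 4.76 ± 0.18 in WT islets, a difference of -0.14 (SE 0.18, interval -0.51 to 0.23, limma adjusted p = 0.972). Over the 12 run libraries it was -0.37 (limma adjusted p = 0.810), with run as a term -0.42 (limma adjusted p = 0.597), and without KO 2, KO 3 and WT 7 it was -0.06.

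Among the type I keratins, Krt18 averaged 7.78 ± 0.28 log2 CPM in KO islets and 7.73 ± 0.19 in WT islets, a difference of 0.05 (SE 0.13, interval -0.21 to 0.31, limma adjusted p = 0.986). Krt19 averaged 1.74 ± 1.45 in KO islets and 1.58 ± 1.05 in WT islets, a difference of 0.16 (SE 0.53, interval -0.94 to 1.25, limma adjusted p = 0.986). Without KO 5 the Krt19 difference was -0.08, and without KO 2, KO 3 and WT 7 it was 0.34. The same libraries left out gave 0.09 for Krt18 and 0.07 for Krt7. The Krt19 interval admits a change of more than 1 log2 unit upward, beside a spread of 1.29 log2 within a genotype, of which counting would give 8.33% of the variance.

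Spp1 averaged 6.15 ± 0.89 log2 CPM in KO islets and 5.85 ± 0.84 in WT islets, a difference of 0.30 (SE 0.33, interval -0.37 to 0.97, limma adjusted p = 0.972). It was -0.23 over the 12 run libraries and -0.45 with run as a term, so its sign turned with the libraries compared. Without KO 2, KO 3 and WT 7 it was 0.46 (limma adjusted p = 0.814). Clu averaged 7.81 ± 0.34 in KO islets and 7.65 ± 0.40 in WT islets, a difference of 0.15 (SE 0.16, interval -0.18 to 0.48, limma adjusted p = 0.972), and 0.21 without those 3 libraries. Exact permutation tests gave p = 0.425 for Krt8, 0.662 for Krt18, 0.947 for Krt7, 0.795 for Krt19, 0.469 for Spp1 and 0.397 for Clu.

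**Figure D5:**
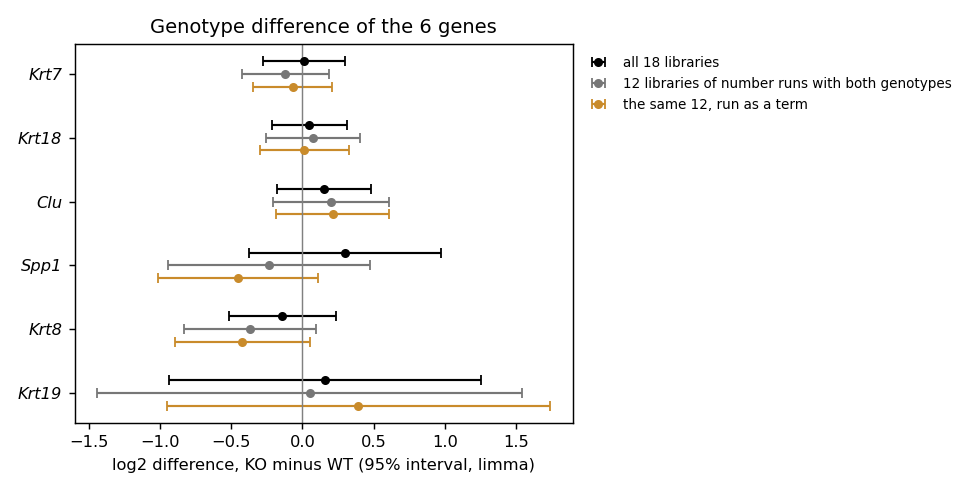
KO minus WT difference on the log2 scale (horizontal axis) with 95% intervals from limma, for all 18 libraries, the 12 libraries of number runs with both genotypes, and the same 12 with run as a term. Each interval spans 0, and the widest are those of Krt19.

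Around the 6 genes, 5 were higher and 1 lower in KO islets, with a median difference of 0.10 against -0.00255 over all genes, of which 49.6% were higher. Of the 20 duct genes, 9 were higher and 11 lower, with a median of -0.09 and 0 called by limma. The smallest p in that list was that of Cldn4, at 5.58 ± 0.75 log2 CPM in KO islets and 6.18 ± 0.32 in WT islets, a difference of -0.60 (limma adjusted p = 0.925). Dcdc2a (a doublecortin domain protein) differed by -0.42 and Lgals4 (a galectin) by 0.56, with limma adjusted p = 0.925 and 0.945. The 2 other keratins listed, Krt222 and Krt1, differed by -0.13 and 0.06. Of the 14 junction genes 9 were higher and 5 lower in KO islets, with 0 called by limma.
Of the 15 stress and injury genes 14 were higher in KO islets, with a median of 0.32 and 0 called. The 18 acinar genes had 10 higher and 8 lower, with a median of 0.02. Of the endocrine lists, 7 of 9 alpha cell genes were lower in KO islets (median -0.46, 2 at an unadjusted limma p under 0.05), as were 4 of 5 delta and PP cell genes (median -0.29), 9 of 14 beta cell genes (median -0.08) and 8 of 17 pan-endocrine genes (median 0.05), with 0 called in each.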

How the data were processed

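Islet RNA was read with the QuantSeq 3' FWD kit, per the labels' protocols, and 1 library per mouse was deposited as a column of log2 values. Per the submitters' processing notes the build was GRCm38, and the tools named were edgeR, HTSeq 0.6.1 and STAR 2.5.2, with no role for any. The sources used here give no prior count, annotation or strand setting. Once the lowest deposited value (log2 -0.83, a floor of 0.562 CPM) was subtracted, all values were whole multiples of 1 read (0.238 to 0.411 CPM) within 0.05 reads, in 100% of cases. Recovered reads per library were 2831137 to 4303680 over the listed genes. The allowance of 3 reads for a count of 0 covers counting error only, and PCR copies are not independent molecules. The limma intervals rest on the spread between libraries.

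The test was limma 3.58.1 in R 4.3.3 on the deposited log2 values (empirical Bayes with trend, two-sided, Benjamini-Hochberg over 10509 genes). Requiring log2 above 0 in 8 or more samples removed 0 genes. Limma voom on the recovered reads served as the count test, because the file holds log2 values. Libraries were grouped by the genotype label and numbered in accession order. The 73 pairs of libraries of 1 group differed by more than sampling noise (chi-square per degree of freedom 6.01 to 41.3 over genes with at least 10 reads). Permutation tests were exact over 43758 regroupings for single values and used 100000 resamples for correlations. The limma fit and the correlation tests were tested on simulated data. RefSeq holds 10508 of the identifiers.

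The 6 genes and all lists were chosen with earlier results of these data known. Named genes are the 6, the 5 most like and 2 most opposite of each, up to 4 of smallest p per list, and duct genes by their r. Other named genes were chosen after their values were seen. Some genes the rule would name are not reported here. Alternatives were a stricter filter, quantile normalization, median centring, 1 as the linear offset, robust empirical Bayes, a fit with no trend, voom, the acinar score or the run of animal numbers as a term, and leaving out libraries. The p-values set a difference or an r against the spread between these mice. No column was left unused.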

Additional observations from a re-analysis of the deposited data

How the results depend on the processing

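Of 1050 values under other settings, 986 kept their direction and side of the threshold, 61 changed sign and 3 moved past the threshold. Some could not change, since a stricter filter, no trend, robust empirical Bayes and the exact test leave a gene's KO minus WT difference as it was. No main value had passed the threshold, so the tally does not measure how stable the results are. No gene was called by limma in any setting, although the lowest adjusted p was 0.0795 without KO 2, KO 3 and WT 7. No called value changed sign, since none was called. Among KO minus WT differences, Krt7 turned to -0.12 over the 12 run libraries and -0.0672 with run as a term, and Spp1 to -0.23 and -0.45. Leaving out 1 library at a time gave -0.0754 to 0.0626 for Krt7, -0.0803 to 0.45 for Krt19 and -1.59 to 0.34 percentage points for the Krt7 share. Krt19 turned to lower in KO islets without KO 5, KO 6 or WT 5. The difference of the Krt8 to Krt18 ratio passed an unadjusted threshold at -0.0362 over the run libraries.

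Within WT islets alone, the r of Krt8 was 0.91 with Spp1, -0.0495 with Krt19, -0.48 with the duct score, 0.49 with the beta cell score and -0.11 with Krt18. WT 7 and WT 8 were lowest of the WT libraries for both Krt8 and Spp1. There the r of Krt18 was 0.12 with Krt19, -0.0430 with Spp1 and -0.15 with the duct score. It was 0.10 with the beta cell score and -0.21 with the alpha cell score. The r of Spp1 with the duct score was -0.24 within WT islets and 0.75 within KO islets. Over all 18 libraries it was 0.35 (rho 0.42), and with 1 library left out it ran from 0.26 to 0.65. Differences of duct less endocrine r in WT islets were -0.64, -0.97 and -0.53 for Krt8 (pan-endocrine, beta and alpha cell) and -0.26 for Krt18 with the beta cell score. Within KO islets alone Krt18 had r = 0.0376 with the acinar score.

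Without the 2 farthest libraries, r was -0.0549 for Krt8 with Krt19, and for Krt18 it was 0.0510 with Krt19, 0.0238 with the pan-endocrine score, 0.20 with the beta cell score and -0.0889 with the alpha cell score. After removal of run means in 14 libraries, Krt18 had r = 0.42 with Krt19, 0.37 with the beta cell score and 0.40 with the acinar score, Krt8 had 0.77 with the alpha cell score and 0.13 with the acinar score, and Krt7 0.23 with the alpha cell score. The duct less endocrine differences were then -0.12 for Krt8 (alpha cell) and -0.27 for Krt18 (beta cell). Quantile normalization gave Krt18 0.0290 with Krt19 and 0.0978 with the acinar score, and median centring 0.0205 with the beta cell score. Spearman gave 0.0753 for Krt18 with the beta cell score and -0.14 for its duct less alpha cell difference. Without KO 2, KO 3 and WT 7, Krt18 had r = 0.0661 with the pan-endocrine score, Spp1 had -0.0176 with the duct score and Krt19 reached 0.79 with the acinar score. The cause was not tested in any of these.

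With 1 library left out, the r of Krt8 ran from -0.00164 to 0.22 with Krt19 and from -0.0529 to 0.37 with the alpha cell score, and that of Krt18 from -0.12 to 0.0480 with Krt19, -0.17 to 0.0497 with the beta cell score and -0.14 to 0.0169 with the acinar score. The Krt18 duct less alpha cell difference ran from -0.0858 to 0.19, and r of Krt19 with the acinar score from 0.52 to 0.78. No paired analysis was possible because the labels give no replicate numbers shared by the groups; the run of animal numbers used as a term is not stated to be a litter or batch. Krt19 has 0 to 59 reads a library.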
